A study of Homo sapiens with 9 samples.

Results

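The RNA held by Argonaute (Ago) in cells given a miR-342-5p mimic was described by 5010 Ago-HITS-CLIP peaks, which are all the peaks of the deposited list for miR-342-5p mimic over negative control mimic. They are 5010 of the 8460 peaks in the series, and the other 3450 belong to the list for miR-342-3p mimic over the same control. The cells were 231HM, labelled MDA-MB-231HM, a highly metastatic line derived from the human triple-negative breast cancer line MDA-MB-231, with the genotype given as WT. Each of the 3 groups, miR-342-5p mimic, miR-342-3p mimic and negative control mimic, received 20 nM of its mimic by lipid transfection and was crosslinked at 48 h, with 3 libraries a group. All libraries come from 1 cell line, and a transfected mimic is not the endogenous miRNA at its usual level. Each list merges the libraries of its group, so it gives no value per library, no depth and no spread between replicates, and the tests and 95% Wilson confidence intervals (CI) here cover counting error only. The same negative control libraries stand behind each list, and the miR-342-3p list is used here only where it shows what differs.

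A microRNA guides Ago to RNA mainly by base pairing through its seed, the bases near its 5′ end. An 8mer site pairs with the whole seed and has an A opposite the first base, the 7mers lack either that A (7mer-m8) or the last seed pair (7mer-A1), and the 6mer is the part that all of them share. Sites in 3′UTRs are the best known for repression, while Ago is also found on coding exons, where the effect on the mRNA is usually smaller. Ago-HITS-CLIP crosslinks Ago to the RNA it holds, so a peak is a place of binding and not a measure of repression.

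The mature miR-342-5p sequence (RefSeq, 21 nt) is shown with its seed, bases 2 to 8, in capitals, because every site type below is read from it. The 30-base stretches that follow are from GRCh37 (hg19), 5′ to 3′ on the strand of the peak, with the seed match in capitals. They are the highest peaks outside the hairpin with each site type in 3′UTRs and in coding exons, among those whose stretch lies in 1 exon.
miR-342-5p: aGGGGUGCuaucugugauuga
RBMS2, 3′UTR, 8mer: ucucagcucauGCACCCCAucuccucuuca
AP2S1, 3′UTR, 8mer: gggaggagacuGCACCCCAcugccucuggg
PSAP, 3′UTR, 7mer-m8: ugcuucagccuGCACCCCucccuugucuca
CCND1, 3′UTR, 7mer-m8: caaaagaauuuGCACCCCgcugcgggccca
RTN4, 3′UTR, 7mer-A1: uaccuuccagcCACCCCAcagugcuugaua
ADM, 3′UTR, 7mer-A1: ucacggcguguCACCCCAccagggcgcaag
SQSTM1, coding exon, 8mer: cgcaacaugguGCACCCCAaugugaucugc
KMT2A, coding exon, 8mer: cuagaaacaagGCACCCCAggaaccuccag
HSPA8, coding exon, 7mer-m8: gcauaccuccuGCACCCCgagguguuccuc
CCN2, coding exon, 7mer-m8: cggccgaugcuGCACCCCccacagaaccac
MMP14, coding exon, 7mer-A1: cacacagcgcuCACCCCAgucacucucagc
LARP1, coding exon, 7mer-A1: ccucgugcaguCACCCCAgugccaaccaaa

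The 3′UTR stretches lie at chr12:56983480-56983509 (RBMS2, an RNA-binding protein), chr19:47341537-47341566 (AP2S1, a subunit of the clathrin adaptor AP-2, minus strand), chr10:73576348-73576377 (PSAP, the precursor of the saposins, minus strand), chr11:69468794-69468823 (CCND1, cyclin D1), chr2:55199682-55199711 (RTN4, which shapes the endoplasmic reticulum, minus strand) and chr11:10328532-10328561 (ADM, the peptide hormone adrenomedullin). A peak's score is described as its reads above background, and these peaks scored 255 for RBMS2, 198 for AP2S1, 630 for PSAP, 404 for CCND1, 1365 for RTN4 and 634 for ADM. The strongest 3′UTR peak with a 7mer-A1 thus scored higher than the strongest with an 8mer. The coding stretches lie at chr5:179250911-179250940 (SQSTM1, an autophagy receptor), chr11:118348754-118348783 (KMT2A, a histone H3 lysine 4 methyltransferase), chr11:122929445-122929474 (HSPA8, a constitutive HSP70 chaperone, minus strand), chr6:132270558-132270587 (CCN2, a matricellular growth factor, minus strand), chr14:23310750-23310779 (MMP14, a membrane-bound matrix metalloproteinase) and chr5:154179450-154179479 (LARP1, which binds mRNAs of the translation machinery). Their scores were 731 for SQSTM1, 360 for KMT2A, 690 for HSPA8, 458 for CCN2, 767 for MMP14 and 602 for LARP1. In all 12 stretches the summit lay within 9 nt of the centre of the site.

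The bound RNA complemented the seed end of miR-342-5p far more often than the opposite strand did. The complement of bases 2 to 7, CACCCC, lay within 50 nt of the summit in 49.16% of the 4963 windows on the nuclear chromosomes and in 2.88% of the opposite strands of the same windows (exact McNemar test, adjusted p under 1e-300 over 16 6mers). Complements of bases 1 to 6 (16.52% against 1.69%, adjusted p = 1.3e-154), bases 3 to 8 (27.71% against 2.38%, adjusted p = 3.2e-284) and bases 4 to 9 (11.99% against 3.04%, adjusted p = 1.0e-65, all by the same exact test) also passed 0.05. The next one along, bases 5 to 10, was found in 1.55% and 1.03% of windows (exact McNemar test, adjusted p = 0.0713), and none of the 11 6mers farther towards the 3′ end passed, with differences between -0.4 and 0.62 percentage points. The windows were rich in C, at 33.5% of bases on the strand of the peak against 24.8% G and 20.5% C in the miR-342-3p windows, and the part of base composition in these shares was not tested. With 25 nt in place of 50 nt on each side, 7 of the 16 6mers were higher on the strand of the peak, among them bases 10 to 15 and 11 to 16, and with the miR-342-3p windows as background 9 were. In coding windows alone the complements of bases 10 to 15 (0.91 points, adjusted p = 0.0316), 11 to 16 (1.54 points, adjusted p = 0.0145) and 13 to 18 (0.8 points, adjusted p = 0.0316, exact McNemar tests) also stood above the opposite strand, by far less than the 41.22 points of bases 2 to 7.

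**Figure D1:**
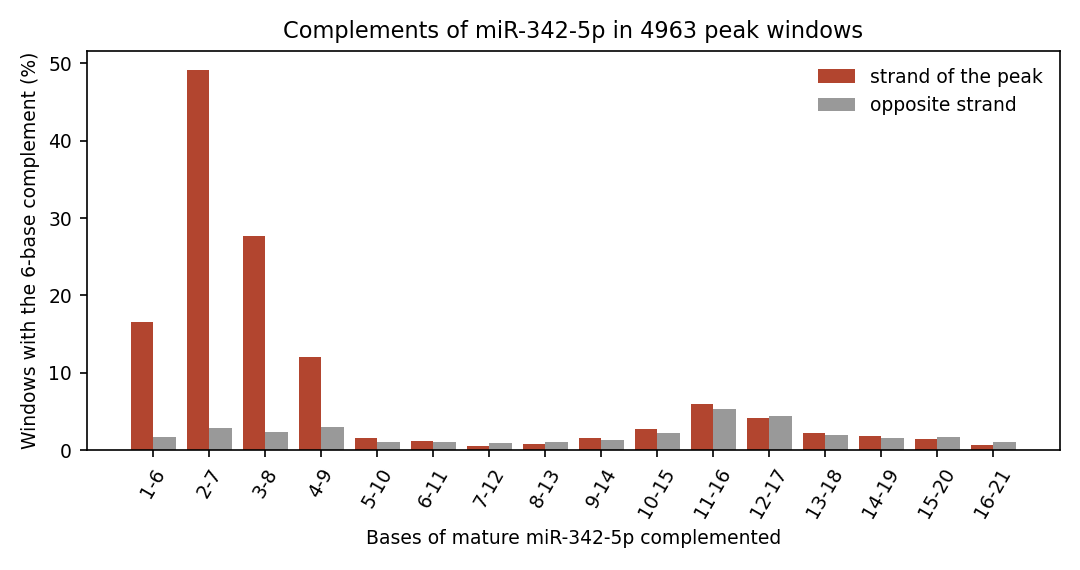
Share of miR-342-5p windows (%) that hold the complement of each run of 6 bases of mature miR-342-5p, on the strand of the peak (red) and on the other strand (grey). The run of bases 2 to 7 stands at 49.16%, and from bases 5 to 10 on the bars reach at most 5.96%.

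Windows without even a 6mer match made up 2523 of the 4963 (50.84%, CI 49.45–52.23%), and they carried near matches among other C-rich words. Of the 18 words that differ from CACCCC by 1 base, 17 were commoner on the strand of the peak than on the opposite strand (exact McNemar test, adjusted p under 0.05 over the 18). In the tokens that follow, positions are counted from the 5′ end of CACCCC and the last base pairs with miRNA base 2. The word with C6U, CACCCU, keeps a G:U pair there and was found in 11.93% of these windows, against 2.18% on the opposite strand and 2.13% of the miR-342-3p windows without a match. The word with C1A, AACCCC, lacks the pair with miRNA base 7 and was found in 9.71%, against 0.91% and 1.86%. GACCCC (C1G) was found in 12.6% against 2.34% and 2.21%, and among the 18 the widest difference from the opposite strand was that of CAGCCC (C3G), in 16.29% against 5.39% and 4.72%. Over all words of 6 bases the widest difference was that of CCCCAG, which is not among the 18, in 19.22% against 6.54% on the opposite strand. The exception was CACGCC (C4G), in 2.54% and 1.78% (exact McNemar test, adjusted p = 0.0842). These windows were also rich in C (31.9%, against 21.0% in the miR-342-3p windows without a match), and the part of base composition in these words was not tested.

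Among sites that the annotation offers, 7mers and 8mers in coding exons had a summit more often than those in 3′UTRs. The shares that do not depend on the miR-342-5p peaks for the choice of genes are those in the protein-coding genes with a miR-342-3p peak. There a miR-342-5p summit lay within 50 nt of 72 of 138 coding 8mers (52.17%, CI 43.89–60.34%) and 42 of 132 8mers in 3′UTRs (31.82%, CI 24.48–40.18%). The difference was 20.36 percentage points (CI 8.59–31.33, two-sided Fisher's exact test, adjusted p = 8.6e-04 over 3 site types). For the 7mer-m8 the shares were 135 of 365 (36.99%) and 46 of 219 (21.0%), a difference of 15.98 points (same exact test, adjusted p = 7.0e-05). For the 7mer-A1 they were 151 of 516 (29.26%) and 61 of 598 (10.2%), a difference of 19.06 points (same exact test, adjusted p = 1.7e-15). The 6mers stood lowest, at 22.57% in coding exons and 6.17% in 3′UTRs, and the order from 8mer to 6mer was the same in both locations. Summits of the miR-342-3p list lay this close to at most 2.17% of the sites of any type.

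Genes with a peak of either mimic gave higher shares in the same order, but many of them are in the set only through a miR-342-5p peak, and most of those peaks are coding. Of their 8mers, 204 of 329 in coding exons (62.01%) and 101 of 235 in 3′UTRs (42.98%) had a miR-342-5p summit, a difference of 19.03 points (CI 10.69–27.02, two-sided Fisher's exact test, adjusted p = 8.3e-06). Over all 7mers and 8mers the difference was 22.64 points in these genes, 19.43 points where a miR-342-3p peak chose the gene and 8.51 points over all protein-coding genes (14.69% against 6.18%), where silent genes count as free. The annotated 3′UTRs take in every basic transcript, and which of them 231HM cells use is not in the lists, so sites in unused 3′UTR stretches count as free. By reading frame, a summit lay near 45.86%, 46.04% and 44.71% of the coding 7mer and 8mer sites whose first CACCCC base has 0, 1 or 2 bases before it in its codon. For the 8mers alone the shares were 62.77% (CI 54.43–70.42%), 71.62% (CI 60.48–80.63%) and 55.17% (CI 46.1–63.91%), and the frames were not tested against each other.

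**Figure D2:**
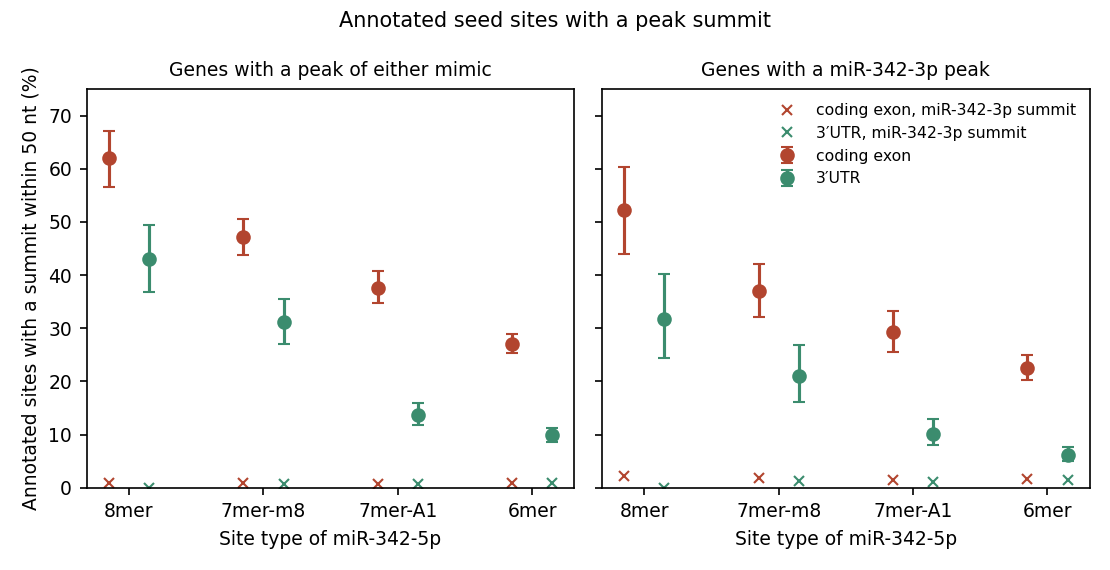
Share of annotated miR-342-5p sites (%) with a miR-342-5p summit within 50 nt (dots, with 95% Wilson CIs) by site type, in coding exons (red) and 3′UTRs (green), and the share with a miR-342-3p summit (crosses). In both sets of genes the shares fall from 8mer to 6mer and the coding sites lie above those in 3′UTRs, from 62.01% to 27.13% against 42.98% to 9.86% in the left panel.

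Of the 4963 windows, 452 had an 8mer, 645 a 7mer-m8, 552 a 7mer-A1 and 791 a 6mer at most. Their median scores were 22, 21, 23 and 20, against 16 for windows without a match. Among the peaks, an 8mer or 7mer was most often present in introns. Of the 253 peaks with an intronic midpoint, 29 overlapped an exon, and of the other 224, 107 had an 8mer (47.8%) and 181 an 8mer or 7mer (80.8%, CI 75.14–85.42%). The latter share was 42.82% in 3′UTRs and 27.61% in coding exons, so introns stood 37.98 and 53.19 points higher (two-sided Fisher's exact tests, p = 2.6e-25 and 2.1e-57). Their scores were low, with a median of 13.5 and a highest value of 344. In the miR-342-3p list, 64 of 122 such intron peaks (52.5%) had an 8mer or 7mer of that strand.

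Coding exons held 3513 of the 5010 peak midpoints (70.12%) and 3′UTRs 864 (17.25%). The midpoints lay in 2283 genes when each peak was given 1 gene, of which 2242 are protein-coding, or 11.1% of the 20162 protein-coding genes in the annotation. At a score of at least 10 this share was 10.9%, and above 50 it was 2.68%. Of the 2242 genes, 1513 (67.5%) had a peak in a coding exon and none in the 3′UTR, 360 (16.1%) in the 3′UTR and none in a coding exon, and 197 (8.8%) in both. An 8mer or 7mer lay near a summit in 713 of the first kind (47.1%, CI 44.6–49.6%), 235 of the second (65.3%, CI 60.2–70.0%) and 150 of the genes bound in both (76.1%, CI 69.7–81.6%). The genes bound in both have at least 2 peaks by definition, which raises their chance of a site and their summed score (median 103 over a median of 4 peaks, against 31 and 23 over a median of 1). Of the markers of this line, CD44, EGFR, AXL and MSN had a miR-342-5p peak and VIM, KRT8, KRT18 and CAV1 had none. Of 6 luminal or epithelial markers, ERBB2 had a peak of score 13, and ESR1, PGR, CDH1, EPCAM and GATA3 had none. The lists give no expression level, so a gene without a peak may be silent or unbound.

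The MIR342 hairpin held 13.27% of the score of all genes, in a single peak of 27731 at chr14:100576003-100576034 that covers the mature 5p arm (chr14:100576010-100576030). The list does not tell reads of the mimic from those of the endogenous miRNA. Without it, the 10 genes with the highest summed scores held 8.58% of the score and 189 of 2282 genes held 50% of it. The median gene had 1 peak and a summed score of 31, with quartiles of 16 and 70.

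GAPDH, a glycolytic enzyme, had the highest summed score after the hairpin, 2930 over 5 peaks. Its peaks scored 1765, 618, 364, 115 and 68. The midpoint of the strongest lay in a short intron and its summit (chr12:6646496) in a coding exon, with a 7mer-m8 within 50 nt. Such cases were rare, as 25 of the 253 intronic midpoints had their summit in an exon. The other glycolytic genes among the 20 highest were PKM, pyruvate kinase (1179 over 8 peaks from 31 to 385, none with a seed match), and ALDOA, aldolase A (985 over 5 peaks of 495, 254, 124, 78 and 34, the second with a 7mer-A1). Glycolysis was thus the function of 3 of the 20.

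Genes of the cytoskeleton and its motors numbered 5 of the 20. PLEC, the cytolinker plectin, summed to 1691 over 19 peaks, with 8 in coding exons, 8 in 3′UTRs and 3 in 5′UTRs. ACTG1, cytoplasmic gamma-actin, summed to 1303 in 3 coding peaks of 981, 178 and 144, none of which had a seed match. DYNC1H1, the dynein heavy chain, had 14 coding peaks (1190, from 6 to 202) and 0 with an 8mer or 7mer. The actin crosslinker FLNA had 8 coding peaks, with a summed score of 1053. Most peaks of this group were on coding exons and without a 7mer or 8mer, as in the whole list. There 70.12% of the peaks were in coding exons, and 3314 of 4963 windows had no 7mer or 8mer. In PLEC the highest peaks, 408 and 288, were in the 3′UTR.

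Membrane and secreted proteins made up 6 of the 20. MMP14 summed to 1553 over 10 peaks, 7 of them in coding exons, and RTN4 to 1547, of which the 3′UTR peak shown above gave 1365 and coding peaks of 131 and 51 the rest. CCN1, a matricellular protein, had only neighbouring peaks of 867 in an intron by the midpoint and 396 in the 5′UTR (1263). BSG (basigin, 1133) had 5 of its 6 peaks in the 3′UTR, and its highest, 494, was a coding peak with a 7mer-m8. NT5E, the ecto-5′-nucleotidase CD73, had 4 adjoining peaks of 732, 81, 79 and 42 and no seed match (934). NOTCH2 had 16 coding peaks (923), of which 13 lay in the last of 3 equal parts of its coding sequence and 0 in the first.

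Among the 20 were also FOSL1 and ANKRD11, which act in transcription, PSAP and EIF4G1. FOSL1, an AP-1 subunit, summed to 1108 over 10 peaks, 7 in the 3′UTR, and had the most peaks for its length among protein-coding genes with at least 3 peaks, 5.77 per kb of exon. EIF4G1, the scaffold of the cap-binding complex, had 11 coding peaks (988). PSAP summed to 1057, of which 630 came from the 3′UTR peak shown above and 253, 147 and 27 from coding exons. How reads that map to several places were treated is not given in the sources used here, and GAPDH, ACTG1, EEF1A1 and the ribosomal protein genes have near-identical pseudogenes, so their scores are uncertain.

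**Figure D3:**
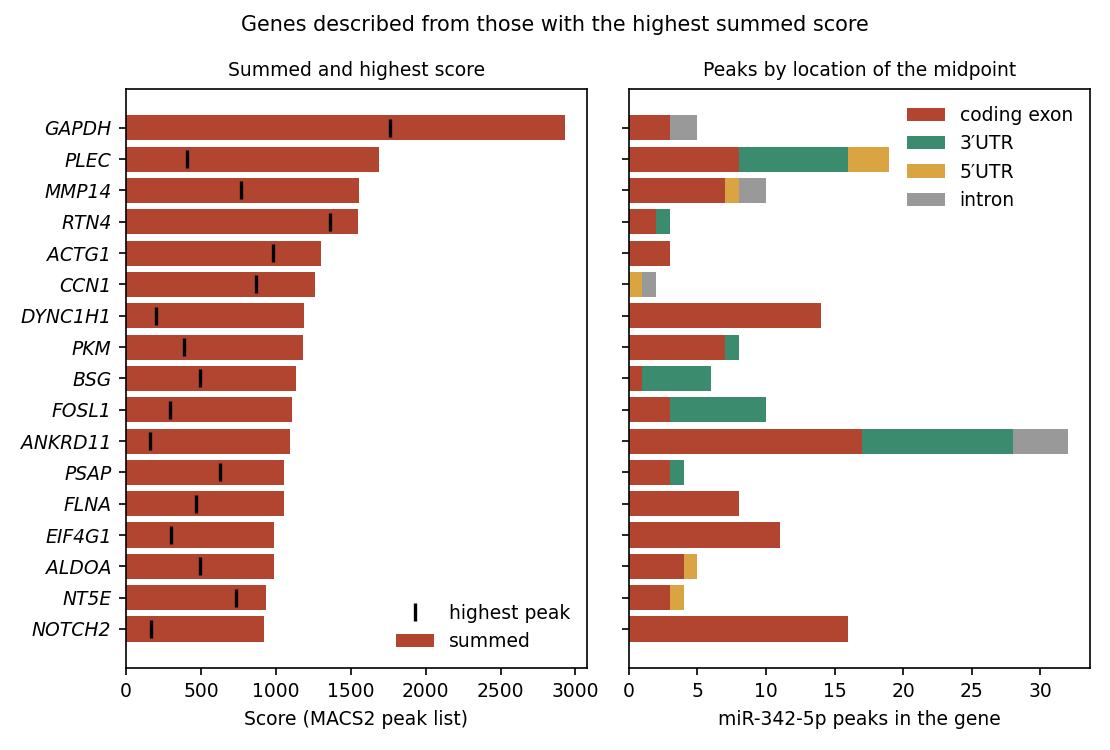
The 17 genes described from those with the highest summed miR-342-5p scores, with the summed score (bars) and the highest peak (ticks) on the left and the number of peaks by the location of their midpoint on the right. GAPDH reaches 2930 with 5 peaks and RTN4 1547 mostly from 1 peak, while ANKRD11 sums 32 peaks, the highest of them 161.

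Binding by several peaks in 1 gene was commoner for miR-342-5p than for miR-342-3p. More than 1 peak lay in 890 of 2283 genes (38.98%), against 648 of 2282 (28.4%), a difference of 10.59 points (CI 7.85–13.3, two-sided Fisher's exact test, p = 4.1e-14). With 10 peaks or more there were 48 genes, which held 793 peaks (16.32%), against 2 genes in the miR-342-3p list. Neighbouring peaks of 1 stretch were often called separately, and after joining peaks no more than 50 nt apart the shares were 28.82% and 21.82% (same exact test, p = 6.0e-08). The miR-342-5p list is also longer, and with its 3450 highest peaks alone the difference was 3.9 points (CI 1.08–6.72, exact test, p = 0.00714).

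In genes with many peaks a smaller share of the peaks had an 8mer or 7mer, and the windows were richer in GC. Each separately called peak counts here, also where several adjoin in 1 stretch, and the share was not computed on clusters. The share of peaks with an 8mer or 7mer was 46.5% (CI 43.9–49.1%) in genes with 1 peak, 32.8% in those with 2 to 4, 23.4% in those with 5 to 9 and 23.2% (CI 20.4–26.3%) in those with 10 or more. Over the same classes the median GC of the windows was 56.4%, 59.4%, 60.9% and 63.4%, and the median exon length 4241, 4355, 5163 and 8383 nt. The median score of a peak hardly moved, at 18, 19, 19 and 18. Across genes the number of peaks had a Spearman's rho of 0.23 with coding length and 0.14 with exon length (n = 2283 genes, which are not independent replicates).

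**Figure D4:**
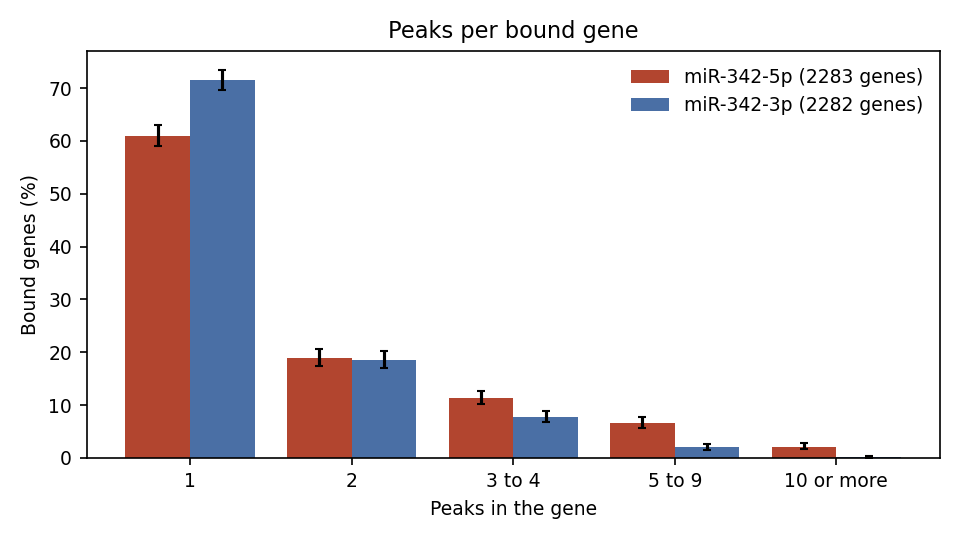
Share of bound genes (%) by the number of peaks in the gene, for miR-342-5p (red) and miR-342-3p (blue), with 95% Wilson CIs. Genes with 10 or more peaks are 2.1% of the genes bound by miR-342-5p and 0.09% of those bound by miR-342-3p.

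Of the 15 genes with the most peaks, 11 act in transcription and chromatin. SPEN, a transcriptional corepressor, had 36 peaks in 10 clusters, with scores from 5 to 148 (median 19.5). Of its 35 peaks in the coding sequence, 29 lay in the last of the 3 equal parts and 0 in the first. PRR12, a proline-rich nuclear protein, had 35 peaks (591 in all, from 5 to 94), or 4.72 per kb of exon, spread over its coding sequence with 11, 13 and 9 peaks in its 3 equal parts from the start. The median peak score was 11 in PRR12, against 19 over the whole miR-342-5p list, near that of SPEN. Few peaks of these genes had a seed match of 7 or 8 bases (9 of 36 in SPEN and 4 of 35 in PRR12).

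Histone methyltransferases among these 15 were KMT2D with 33 peaks, all coding (704, highest 61), SETD1B with 27 (595, highest 56) and KMT2A with 18 (777, highest 360). Of the KMT2D peaks, 15 and 14 lay in the first and middle parts of its coding sequence and 4 in the last. ANKRD11, an ankyrin-repeat regulator of chromatin, had 32 peaks (1097), of which 11 were placed in a 3′UTR and 7 had an 8mer. Those 11 lay upstream of all its coding peaks, so this 3′UTR is that of a transcript that ends before those coding exons. In the transcripts with these coding exons the same stretch is not 3′UTR. The remodellers SRCAP and ARID1A had 23 and 17 peaks, with summed scores of 486 and 459. The corepressor CIC had 19 peaks (328), and BCL9L, a coactivator of beta-catenin, had 22 (588). TNRC18 with 22 peaks (417), PLEC and NOTCH2 were also among the 15. Over the 15 genes, 331 of 375 peaks were in coding exons and 24.0% had an 8mer or 7mer, with coding lengths from 4089 to 16662 nt.

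Peaks per length also picked out short genes. UBB, polyubiquitin B, had 6 coding peaks of 362, 188, 88, 71, 40 and 7 in 690 nt of coding sequence, or 4.53 per kb of exon, and none with a seed match. Its coding sequence repeats the ubiquitin unit, so reads may be split between the repeats and other ubiquitin genes. IFITM3, an interferon-induced membrane protein, had 4 peaks of 168, 57, 45 and 15 (3.52 per kb) and EGR1, an immediate early transcription factor, 11 peaks from 12 to 134 (3.51 per kb). IFITM3 has close relatives next to it, which the list cannot tell apart where their sequences are shared.

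Along the coding sequence, miR-342-5p peaks leaned slightly towards the 3′ end. For this, peaks in coding exons and 3′UTRs were placed again on the transcript of the gene with the longest coding sequence. Those outside its exons were left out, and some changed between 3′UTR and coding sequence, so the totals differ from those above. The last of 3 equal parts of the longest coding sequence held 1299 of 3593 peaks (36.15%, CI 34.6–37.74%), against 618 of 1956 miR-342-3p peaks (31.6%), a difference of 4.56 points (CI 1.95–7.13, Fisher's exact test, two-sided, p = 6.8e-04). The call was lost with only the highest peak of each gene (3.01 points, exact test, p = 0.0813), and at scores above 50 the shares were 35.96% and 35.97%. In 3′UTRs, 344 of 725 miR-342-5p peaks (47.45%) and 429 of 1001 miR-342-3p peaks (42.86%) lay in the first of 3 equal parts, and the difference of 4.59 points did not pass 0.05 (CI -0.16 to 9.33, exact test, p = 0.0624).

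Chromosome 19, whose genes are dense and GC-rich, held 621 miR-342-5p peaks (12.4%) against 220 of the miR-342-3p list (6.38%), a difference of 6.02 points (Fisher's exact test, two-sided, p = 1.3e-20). It carries 7.34% of the protein-coding genes. Chromosome 16 held 7.45% and 3.86% of the peaks with 4.27% of the genes, while chromosomes 4, 9 and 21 held 1.8%, 1.86% and 0.32% of the miR-342-5p peaks with 3.77%, 3.96% and 1.14% of the genes. The median GC content of the 101-nt windows was 59.4% in this list, against 49.5% in the miR-342-3p list.

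The functions of the bound genes were read from 24 gene lists of 951 genes in all. A miR-342-5p peak was present in 391 of them (41.1%, CI 38.0–44.3%), against 11.1% of all protein-coding genes. The lists favour expressed and well studied genes. They and their members were chosen with earlier results of these data known, so these shares are a description only. Of the members with a miR-342-3p peak, 201 of 344 (58.4%, CI 53.2–63.5%) had a miR-342-5p peak. The share over all protein-coding genes with a miR-342-3p peak was 34.3%. The condition of a miR-342-3p peak does not use the miR-342-5p peaks, but the choice of lists may depend on them. Of the members with a peak of either mimic the share was 73.2%, against 60.4% of such protein-coding genes, but that set takes in every gene that has only a miR-342-5p peak. No list was tested, and expression and length were not corrected for.

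Coactivators, corepressors and bromodomain proteins had the highest share, 25 of 32 (78.1%), and 25 of the 26 members with a peak of either mimic (96.2%). Of the 12 members with a miR-342-3p peak, 11 had one of miR-342-5p too. They held 191 peaks, 173 of them in coding exons, and SPEN and BRD2 (364 over 7 peaks) were among the 4 members with the highest sums. Histone lysine methyltransferases had 13 of 25 bound (52.0%), with 126 peaks and a median of 9 peaks for each bound gene, against a median of 3 for the coactivator list. SWI/SNF and CHD remodellers had a peak in 15 of 32 members (46.9%), with SRCAP, ARID1A, BICRA (219) and CHD2 (156) highest. The members of these 3 lists are long, with median exon lengths of 8499, 8549 and 7271 nt. Mediator, the coactivator complex that contacts RNA polymerase II, had a peak in 5 of 32 members (15.6%), led by MED1 (131 over 7 peaks), and RNA polymerase II itself in 4 of 12, led by POLR2A (378 over 12 peaks, all coding).

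Growth factor receptors and Notch had 25 of 40 members bound (62.5%), with NOTCH2, the receptor tyrosine kinases AXL (575 over 8 peaks) and EPHA2 (241 over 4), and the Wnt coreceptor LRP5 (142 over 7) highest. Extracellular matrix genes and integrins had 27 of 47 (57.4%). Their highest members were MMP14, P4HB (a subunit of collagen prolyl hydroxylase, 907, with a 3′UTR peak of 710 and a 6mer), LAMB3 (a laminin-332 chain, 465) and CD44, the hyaluronan receptor (421 over 6 coding peaks). Actin cytoskeleton and adhesion had 24 of 47 bound (51.1%), with FLNC (510 over 11 peaks) below ACTG1 and FLNA. Plakins, spectrins and other giant scaffolds had 11 of 24 bound and a median summed score of 222, the highest of the lists. AHNAK (858 over 6 peaks) and MACF1 (478 over 15 peaks, 11 of them by the midpoint in introns) belonged to these. Tubulins and microtubule proteins had 9 of 24 bound, led by MAP1B (393). Of the members with a miR-342-3p peak, 17 of 22 receptor and 20 of 26 matrix genes had one of miR-342-5p. For the actin list this was 15 of 25, for the giant scaffolds 11 of 14 and for the tubulins 3 of 10 (30.0%). The share over all such protein-coding genes was 34.3%.

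Glycolysis had 12 of 20 members bound, with SLC2A1, the glucose transporter GLUT1 (286 over 5 coding peaks), after GAPDH, PKM and ALDOA. Ubiquitin, chaperones and proteasome had 27 of 48 (56.2%), led by HSP90AA1 (919 in peaks of 567, 326 and 26), HSPA8 (830), UBB and HSP90AB1 (523). Translation factors had 20 of 44 bound (45.5%), with EEF1A1 (561), EEF1G (348) and EIF3D (313) after EIF4G1, and aminoacyl-tRNA synthetases 9 of 20, led by AARS1 and TARS1 (188 each). Cytosolic ribosomal proteins had 19 of 79 (24.1%), led by RPL27A (539) and RPS24 (471), and 17 of the 19 had a peak above 50 although only 2 had an 8mer or 7mer near a summit. This list had the shortest exons, with a median of 1430 nt. Of the members with a miR-342-3p peak, 7 of 13 glycolysis genes and 15 of 21 of the ubiquitin list had one of miR-342-5p. For translation factors this was 9 of 14, for aminoacyl-tRNA synthetases 4 of 12 (33.3%) and for ribosomal proteins 5 of 13 (38.5%). The synthetases and ribosomal proteins thus stood near the 34.3% of all protein-coding genes with a miR-342-3p peak.

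In the nucleus, splicing factors and hnRNPs had 31 of 69 members bound (44.9%), with the U5 snRNP proteins SNRNP200 (729 over 10 coding peaks) and PRPF8 (678 over 9) highest, followed by SF3B3 (316) and SRRM2 (313). Nuclear pore proteins and importins had 20 of 43 (46.5%), led by the importins KPNA2 (215) and KPNB1 (112). Mitosis and spindle genes had 25 of 61 (41.0%). Their highest members were TACC2 (271, a single intron peak), the cohesin subunit RAD21 (261, with all 5 peaks in the 3′UTR, 1 of them with an 8mer and 1 with a 7mer), MKI67 (212) and CDC20 (201). DNA replication had 10 of 60 (16.7%), led by TOP1 (207), and 47.6% of its members with a peak of either mimic, the lowest of the lists. Of its 13 members with a miR-342-3p peak, 2 had one of miR-342-5p (15.4%), against 34.3% of all such protein-coding genes. RNA silencing and mRNA decay had 9 of 43 (20.9%), among them TNRC6B (178 over 5 coding peaks) and AGO2 (53), which are parts of the silencing complex itself. Of its members with a miR-342-3p peak, 4 of 11 (36.4%) had one of miR-342-5p, near the 34.3%. The same count was 12 of 20 for splicing factors, 11 of 22 for nuclear pore proteins and importins, and 10 of 17 for mitosis genes.

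Of the members of the signalling, cell cycle, endocytosis and lipid lists with a peak of either mimic, 71.4% (mTOR, PI3K and MAPK), 66.7% (E2F, RB and G1 cyclins), 66.7% (clathrin and endocytosis) and 71.4% (fatty acid and cholesterol synthesis) had one of miR-342-5p. Of the members with a miR-342-3p peak, in the same order, 13 of 21 (61.9%), 1 of 6 (16.7%), 5 of 11 (45.5%) and 7 of 11 (63.6%) had one. The share over all protein-coding genes with a miR-342-3p peak was 34.3%. Signalling by mTOR, PI3K and MAPK had 20 of 53 bound (37.7%), led by DUSP6, a phosphatase of ERK (622, with 3 coding peaks and 1 in the 5′UTR), SPRY4 (459 over 7 peaks), CDC42 (255) and RAC2 (147). E2F, RB and G1 cyclins had 10 of 35 (28.6%) and a median summed score of 25. Their highest member was CCND1, whose only peak is the 3′UTR peak with the 7mer-m8 shown above, followed by FOXM1 (69), TFDP1 (43) and CDK6 (39, a coding peak with an 8mer). Clathrin and endocytosis had 12 of 30, led by AP2S1 and the AP-2 kinase AAK1 (81), and fatty acid and cholesterol synthesis 10 of 32 (31.2%), with FASN (64) and SREBF2 (52) among the highest. ACLY, ATP citrate lyase, had 4 3′UTR peaks of 21, 10, 7 and 7, and those of 21 and 7 nearest the 3′ end had an 8mer. The 8 genes with 3′UTR sites that the study names for miR-342-5p were chosen with these peaks in view. Their summed scores ran from 14 (NFIA) to 198 (AP2S1), and between them stood 147 (RAC2), 146 (CKB), 72 (PRELID1), 45 (ACLY), 23 (TTYH3) and 18 (STRADB).

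**Figure D5:**
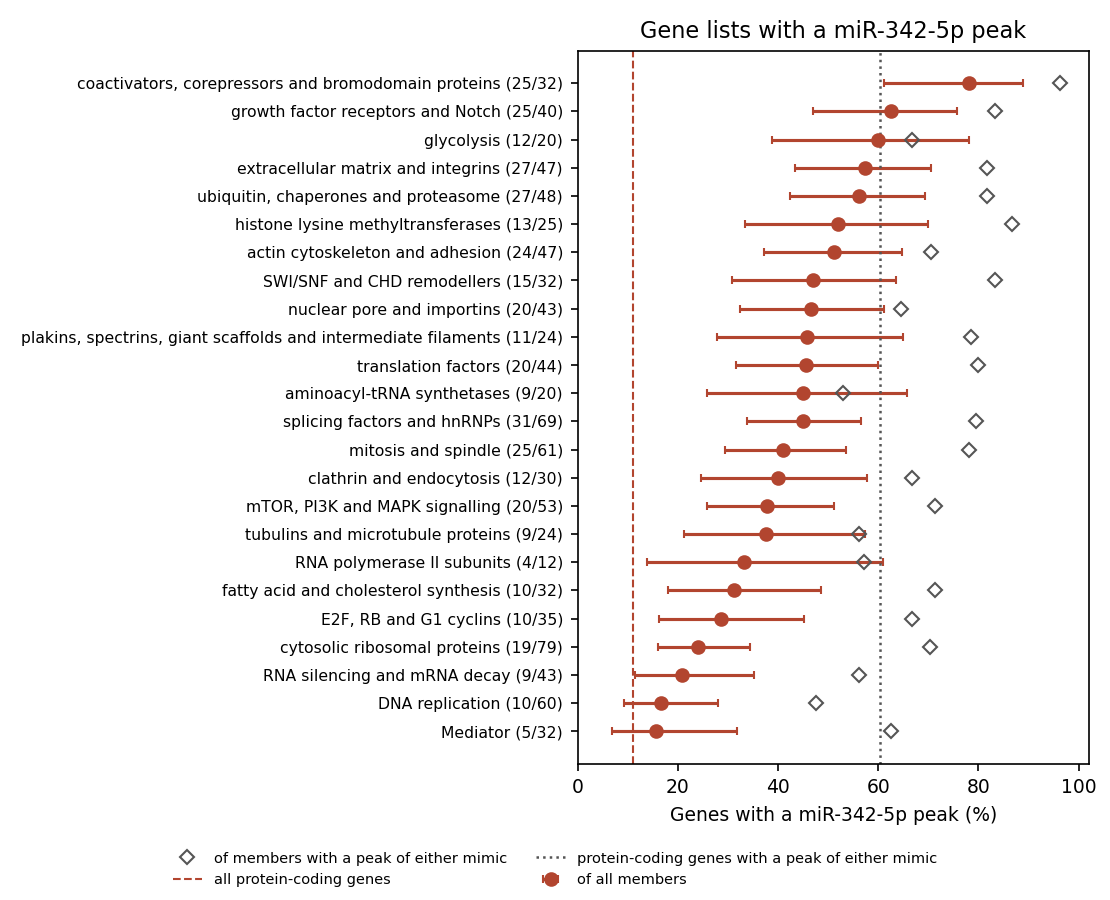
Share of the members of 24 gene lists (%) with a miR-342-5p peak, out of all members (dots, with 95% Wilson CIs and counts beside the names) and out of those with a peak of either mimic (diamonds). The dashed line marks 11.1% of all protein-coding genes and the dotted line 60.4% of those with a peak of either mimic, and coactivators, corepressors and bromodomain proteins lie highest on both scales (78.1% and 96.2%).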

How the data were processed

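Ago-HITS-CLIP libraries of 231HM cells were made in triplicate for each mimic. Per the submitters' processing notes and the study's methods, the authors trimmed reads with cutadapt 1.13, collapsed them with UMI-tools, mapped them to hg19 with TopHat2 2.0.13 and called peaks over the negative control mimic with MACS2 2.1.1.20160309. The deposited lists give each peak's strand, summit and score, described as reads above background, with 5 the lowest. The scaling of this score is not given in the sources used here. The deposited lists hold 0 columns of per-sample values that were left unused, since the replicates are merged.

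GENCODE release 44 basic transcripts on GRCh37 gave the place of each midpoint on its strand. Where several applied, a 3′UTR came first, then coding exons, 5′UTRs, exons of non-coding genes and last introns. Readthrough and unnamed genes yielded to named ones, and mitochondrial peaks were not placed. Gene-level score is the sum over the peaks of a gene. Seed matches were sought in windows of 50 nt on each side of the summit, and a site was occupied when a summit lay within 50 nt of its centre. Clusters joined peaks no more than 50 nt apart. Shares were compared by two-sided Fisher's exact tests or exact McNemar tests, with Benjamini-Hochberg adjustment, Wilson intervals for shares and Newcombe intervals for differences, all at 95% and covering counting error only. Named genes are the 20 with the highest summed score, the 15 with the most peaks, the 5 with the most peaks per kb among those with at least 3, up to 4 members of each list, and the genes with 3′UTR sites that the study names for miR-342-5p. Genes of the 5 highest peaks were also named. A few genes that the rule selects are not reported here, though counts over groups of genes include them. The gene lists, the members and the tests were chosen with earlier results of these data known. Alternatives were other windows, score minimums, gene assignments and backgrounds. The scripts were tested on simulated data. Python 3.11.15, pandas 2.3.3, NumPy 2.4.6, SciPy 1.17.1, pysam 0.24.0 and matplotlib 3.10.9 were used.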

Additional observations from a re-analysis of the deposited data

How the results depend on the processing

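The merged lists give no depth and no spread between libraries, and they hold no expression level, so shares of genes could not be corrected for expression. No paired analysis was possible because the replicates are merged in the deposited lists, and for the same reason no replicate could be left out. Of the alternatives for the answers to the main comparisons, 19 were the same, 1 lost the call, 1 reversed in sign and 6 moved. The same meant that direction and call were kept or, for an untested share, that it stayed within the 95% CI. The reversed one stood at almost no difference (-0.0046 points) and lost the call too. An untested share counted as moved when it left the 95% CI of the main share. The gene-level score had no CI, so any change in it counted as moved. The larger share of coding peaks in the last of 3 equal parts of the coding sequence was 3.01 points with only the highest peak of each gene and -0.0046 points at scores above 50, and the cause was not tested. The share of all gene list members with a peak was 18.0% at scores above 50 and, with smaller denominators by construction, 73.2% of members with a peak of either mimic and 58.4% of members with a miR-342-3p peak. The 20 highest genes held 25.1% of the gene-level score, 29.5% when ranked by the highest peak, 87.5% per kb of exon, where the hairpin gene is only 99 nt long, and 13.1% without the 5 highest peaks. Of these 20 genes, 9, 10 and 18 remained among the 20 highest. The complement of bases 12 to 17 lay 1.89 points above the miR-342-3p windows (exact test, adjusted p = 4.9e-06) though its difference from the opposite strand was -0.18 points. The excess of bases 2 to 7 ranged from 44.47 to 54.7 points over its alternatives. Alternatives chosen after seeing the data were the joining of peaks into clusters, the 3450 highest peaks, the removal of genes with 10 or more peaks, the share of list members with a miR-342-3p peak and the removal of intron peaks that overlap an exon.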

Other observations

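Among the 5 highest peaks, 2 lay outside named nuclear genes: a minus-strand peak of score 1253 at chr2:133039135-133039168, where the annotation holds no gene on that strand, and a mitochondrial peak of 1062. In all, 104 peaks lay in no gene on their strand, 47 were mitochondrial, and 35 lay in 26 lncRNA genes. A further peak of 827 lay in an unnamed non-coding gene at chr2:149639294-149639387 on the minus strand, and had no seed match.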
